A study of Homo sapiens with 12 samples.

Results

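The genes ENDOU, SLC26A2, CPA4, LRRC15, PRKAR2B and AMIGO2 were examined in RNAseq of SKBR-3 cells that had been given FOXA1 siRNA, lapatinib, both or neither. They are 6 of the 20531 genes listed in each library, and they were selected on the size of their log2 fold changes after FOXA1 siRNA and of its interaction with lapatinib in earlier results of these same data. The name given to the set, genes strongly derepressed by FOXA1 siRNA, held for 4 of the 6. ENDOU, SLC26A2, CPA4 and LRRC15 were higher in FOXA1 siRNA libraries than in NT siRNA libraries, in DMSO and in lapatinib. PRKAR2B was lower with FOXA1 siRNA in both, and AMIGO2 was slightly higher in DMSO and lower in lapatinib, so neither is called derepressed here.

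SKBR-3 is an established HER2+ breast cancer cell line. Its cells received a pool of FOXA1 siRNA or a pool of non-targeting (NT) siRNA, and then 300 nM lapatinib, an inhibitor of the HER2 and EGFR kinases, or the vehicle DMSO for 24 h. The 4 groups are NT siRNA in DMSO, NT siRNA in lapatinib, FOXA1 siRNA in DMSO and FOXA1 siRNA in lapatinib, with 3 libraries each and 12 in all. The labels place the drug 48 h after the siRNA, whereas the methods give a shorter interval. All groups carry 1 siRNA pool each in 1 cell line, and nothing states that the replicates were separate cultures, so the p-values measure only the spread between these libraries. In a bulk library, fewer cells expressing a gene and less of its RNA per cell cannot be told apart.

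FOXA1 is a forkhead pioneer factor, a protein that binds its sites in closed chromatin and opens them to other factors. In mammary epithelium it is known for maintaining the luminal state. Genes that rise when such a factor is removed are often called derepressed, which describes the direction of the change and not the way it came about. The 6 genes have unlike products. ENDOU is an endoribonuclease that cuts RNA at uridines, CPA4 is a secreted carboxypeptidase, and SLC26A2 carries sulfate into cells for the sulfation of proteoglycans. LRRC15 and AMIGO2 are cell surface proteins with leucine-rich repeats, and PRKAR2B is a regulatory subunit of the cAMP-dependent protein kinase PKA.

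The genes lie on 4 chromosomes of GRCh38.p14 by the RefSeq annotation. ENDOU (Entrez gene 8909) spans chr12:47709734-47725490, and AMIGO2 (347902) lies 630 kb from it at chr12:47075707-47079959 on the minus strand. CPA4 (51200) at chr7:130293161-130324180 and PRKAR2B (5577) at chr7:107044705-107161811 share a chromosome but are 23131 kb apart. SLC26A2 (1836) is at chr5:149960758-149987400, and LRRC15 (131578) at chr3:194355249-194369743 on the minus strand.

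Promoter sequence from RefSeq (GRCh38.p14) was at hand for 5 of the 6 genes, all but ENDOU. Neither forkhead motif searched, GTAAACA or GTCAACA on either strand, occurred from 250 bases before to 50 bases after the start of any of the 5. Of all 35116 promoters of that length, 3.42% and 2.32% hold these letters. The 250 bases before the start of CPA4, LRRC15 and AMIGO2 are shown because all 3 hold TGACTCA or its reverse TGAGTCA, the letters of the AP-1 motif, which 4.95% of all promoters hold. This motif was looked for after the sequences had been read, and SLC26A2 and PRKAR2B do not hold it. Each sequence is written 5′ to 3′ on the strand of its gene, with the motif in capitals.
CPA4, chr7:130292911-130293160, plus strand: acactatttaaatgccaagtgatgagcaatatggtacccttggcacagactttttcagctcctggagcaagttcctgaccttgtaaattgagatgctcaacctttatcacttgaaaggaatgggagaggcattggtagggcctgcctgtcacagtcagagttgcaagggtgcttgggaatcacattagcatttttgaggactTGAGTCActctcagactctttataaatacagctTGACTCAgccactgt
LRRC15, chr3:194369744-194369993, minus strand: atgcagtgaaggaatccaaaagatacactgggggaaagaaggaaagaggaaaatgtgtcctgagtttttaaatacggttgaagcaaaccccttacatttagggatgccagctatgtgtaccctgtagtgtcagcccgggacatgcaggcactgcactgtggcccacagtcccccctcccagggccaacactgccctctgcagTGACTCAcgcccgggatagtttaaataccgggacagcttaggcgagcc
AMIGO2, chr12:47079960-47080209, minus strand: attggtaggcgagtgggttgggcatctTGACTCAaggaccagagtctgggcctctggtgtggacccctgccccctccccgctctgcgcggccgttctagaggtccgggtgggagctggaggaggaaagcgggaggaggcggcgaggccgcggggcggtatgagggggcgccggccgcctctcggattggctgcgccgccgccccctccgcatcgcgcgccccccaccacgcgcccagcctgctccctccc
In CPA4 the motif begins 48 and 15 bases before the start, in LRRC15 48 bases before it, and in AMIGO2 223 bases before it. A match of letters is a description of the sequence and not a site. The promoters also differed in base composition, with 46.3% G and C in CPA4 and 54.7% in LRRC15 against 73.7% in AMIGO2, 66% in SLC26A2 and 81.7% in PRKAR2B (median of all promoters 58.7%, quartiles 47% and 68%).

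The siRNA reached its target in every library. FOXA1 had 8308 to 8767 normalized counts with NT siRNA in DMSO and 1160.1 to 1564 with FOXA1 siRNA. In lapatinib it had 12168 to 13177 and 1642 to 2384, respectively. Normalized counts are counts divided by a library size scaled by the trimmed mean of M-values (TMM). Expected counts per library totalled 25749578 to 32271850. All 12 markers of SKBR-3 cells were detected in every group, with a summed level of 13209 to 20843 TPM, and ESR1, PGR and CDH1 stayed at or under 0.98 TPM. Markers of 10 fibroblast genes summed to 3.11 to 5.89 TPM, mostly COL1A1, and those of 10 immune genes to 19.6 to 51.3 TPM, mostly CD68, with PTPRC at or under 0.32 TPM. The 6 endothelial markers summed to 4.18 to 12.2 TPM, mostly CDH5.

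Per transcript length, CPA4 was the most abundant of the 6 genes in cells with FOXA1 siRNA in DMSO, at 80.1 ± 6.51 TPM (SD, n = 3). ENDOU followed at 21.2 ± 2.0 TPM, and then AMIGO2 at 13.8 ± 1.23, SLC26A2 at 12.6 ± 1.55 and LRRC15 at 11.8 ± 2.13 TPM, which were within their spread of one another. PRKAR2B was lowest at 1.25 ± 0.289 TPM. In cells with NT siRNA in DMSO the order was different, with AMIGO2 at 10.7 ± 0.645 and CPA4 at 9.66 ± 0.814 TPM together at the top. LRRC15 at 3.67 ± 0.547 and PRKAR2B at 3.65 ± 0.665 TPM did not differ beyond their spread, and ENDOU at 2.25 ± 0.224 and SLC26A2 at 1.38 ± 0.0987 TPM were lowest. From its lowest to its highest group mean in normalized counts, SLC26A2 ranged over 25-fold, PRKAR2B over 22.5-fold, LRRC15 over 16.4-fold, CPA4 over 12.1-fold, ENDOU over 9.34-fold and AMIGO2 over 2.10-fold.

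**Figure D1:**
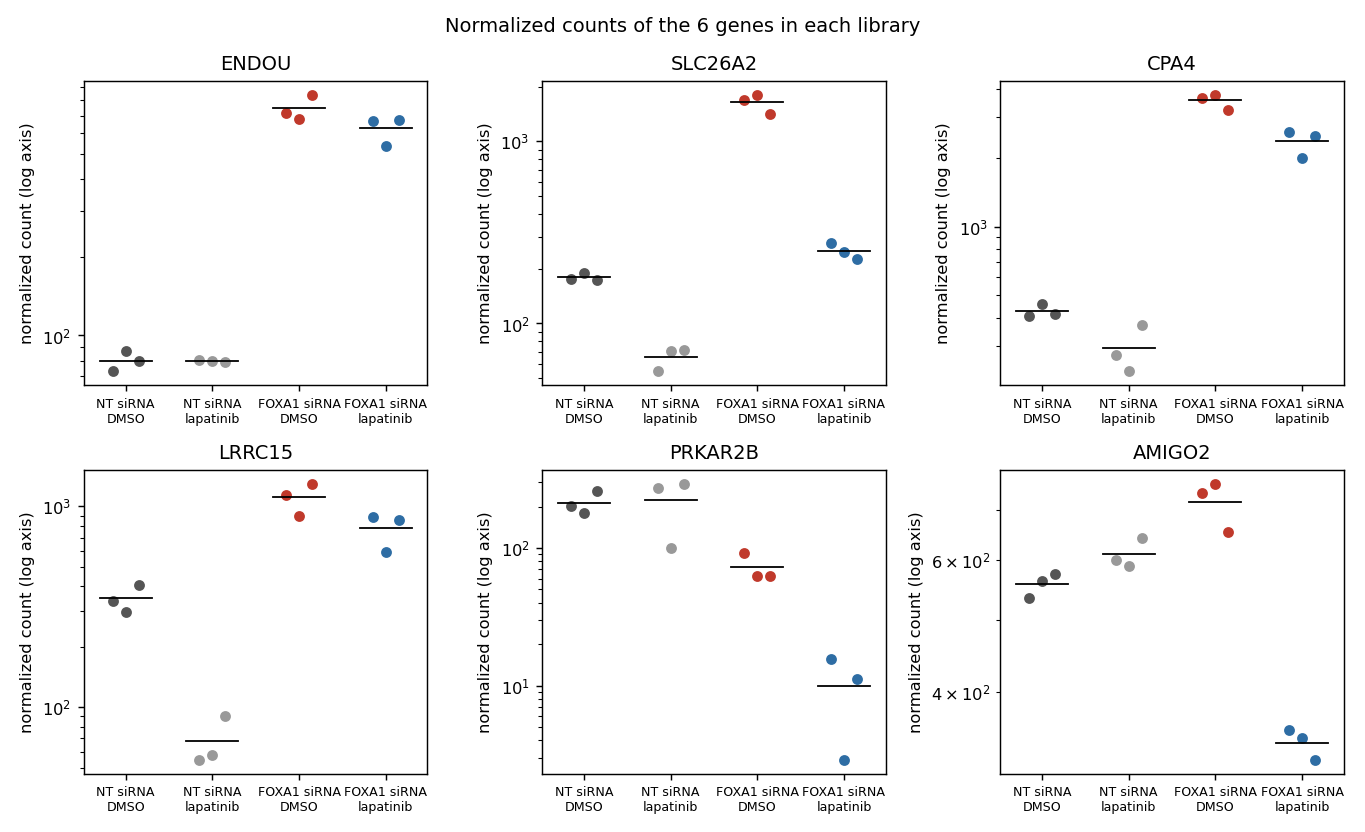
Normalized counts of the 6 genes in each of the 12 libraries (points; vertical log axis with its own range in each panel) in the 4 groups, with the group mean as a line. ENDOU, SLC26A2, CPA4 and LRRC15 are higher with FOXA1 siRNA in both drugs, SLC26A2 falls back in lapatinib from a mean of 1640 to 251 normalized counts, and PRKAR2B is lowest with both treatments.

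ENDOU rose with FOXA1 siRNA and kept most of the rise in lapatinib. In the DMSO libraries, replicates 1 to 3 of ENDOU had 72.9, 87.3 and 79.6 normalized counts with NT siRNA and 718, 676 and 840.5 with FOXA1 siRNA. Under lapatinib these values were 80.8, 79.5 and 79.0 with NT siRNA and 664, 534 and 676 with FOXA1 siRNA. Every library with FOXA1 siRNA was above every library with NT siRNA, while both NT siRNA groups overlapped. In log2, FOXA1 siRNA changed ENDOU by 3.23 (standard error 0.12) in DMSO and 2.96 (standard error 0.12) in lapatinib. Counted in normalized reads, the rise in lapatinib was 82.0% ± 7.30 (SD, n = 3 replicate numbers) of that in DMSO.

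CPA4 behaved much like ENDOU on the log2 scale but lost more in counts. CPA4 had 407, 461 and 417 normalized counts in the DMSO libraries with NT siRNA and 3654, 3756 and 3238 with FOXA1 siRNA. In the lapatinib libraries it had 275, 234 and 372 and 2581, 2000.0 and 2480.1, in the same order. The 4 groups did not overlap, in the order NT siRNA in lapatinib, NT siRNA in DMSO, FOXA1 siRNA in lapatinib and FOXA1 siRNA in DMSO. FOXA1 siRNA gave a log2 fold change of 3.06 (standard error 0.08) in DMSO and 2.99 (standard error 0.17) in lapatinib. In normalized counts, 66.4% ± 11.3 (SD, n = 3) of the rise was kept in lapatinib.

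SLC26A2 had the rise that lapatinib reduced most. Cells in DMSO had 175, 190.4 and 174 normalized counts of SLC26A2 with NT siRNA and 1695, 1802 and 1422 with FOXA1 siRNA. Cells in lapatinib had 54.7, 70.6 and 71.8 with NT siRNA and 278, 248 and 227 with FOXA1 siRNA. The groups did not overlap, and the libraries with both treatments lay just above those with neither. FOXA1 siRNA changed SLC26A2 by 3.20 on the log2 scale (standard error 0.11) in DMSO and by 1.92 (standard error 0.15) in lapatinib. The rise in normalized counts in lapatinib was 12.7% ± 1.86 (SD, n = 3) of that in DMSO.

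LRRC15 showed the opposite: its fold change was larger in lapatinib, although its level was not. The DMSO libraries held 339.9, 299 and 407 normalized counts of LRRC15 with NT siRNA and 1137, 893 and 1299 with FOXA1 siRNA. The lapatinib libraries held 54.7, 57.7 and 90.3 with NT siRNA and 884, 591 and 854 with FOXA1 siRNA. No library overlapped between groups, and the libraries with NT siRNA in lapatinib were far below the rest. In log2, FOXA1 siRNA changed LRRC15 by 1.68 (standard error 0.16) in DMSO and 3.51 (standard error 0.23) in lapatinib. In normalized counts the rise was 761 ± 152 in DMSO and 709 ± 156 in lapatinib, or 93.2% ± 9.68 (SD, n = 3) of it. LRRC15 is also made by activated fibroblasts. The summed level of the fibroblast markers was 5.12 to 5.89 TPM with NT siRNA in DMSO and 4.32 to 5.72 with FOXA1 siRNA, and 3.11 to 4.03 and 3.49 to 4.30 TPM in lapatinib, so that both siRNA groups overlapped in each drug. COL1A1 made up at least 80.8% of this sum, the other fibroblast markers stayed at or under 0.7 TPM together, and LUM and POSTN were at 0 in every library. The fibroblast markers were, like LRRC15, lower in lapatinib than in DMSO with NT siRNA. The endothelial markers summed to 8.43 to 11.7 TPM with NT siRNA in DMSO, 6.96 to 8.97 with FOXA1 siRNA in DMSO, 4.18 to 6.73 with NT siRNA in lapatinib and 7.37 to 12.2 with FOXA1 siRNA in lapatinib. CDH5 made up at least 77.3% of them, and the other endothelial markers reached 0.95 TPM together. Like LRRC15, the endothelial sum was lower after lapatinib with NT siRNA, and in lapatinib it was above that group when FOXA1 siRNA had been given, both without overlap. The part of either marker list in the changes of LRRC15 was not tested.

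AMIGO2 changed least, and in opposite directions. In DMSO there were 535, 563 and 575 normalized counts of AMIGO2 with NT siRNA and 739, 760.2 and 654 with FOXA1 siRNA. In lapatinib there were 600.4, 589 and 643 with NT siRNA and 355, 347 and 324 with FOXA1 siRNA. The groups did not overlap, with the cells given both treatments lowest and those given FOXA1 siRNA in DMSO highest. FOXA1 siRNA changed AMIGO2 by 0.38 on the log2 scale (standard error 0.08) in DMSO and by -0.84 (standard error 0.08) in lapatinib, with the same signs in all 3 replicate numbers.

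PRKAR2B fell with FOXA1 siRNA and fell further with lapatinib. PRKAR2B had 204, 180.5 and 259 normalized counts in DMSO with NT siRNA and 91.9, 62.3 and 62.8 with FOXA1 siRNA. Its values in lapatinib were 271, 100.4 and 294 with NT siRNA and 15.5, 2.88 and 11.3 with FOXA1 siRNA, of which the lowest rests on 3 counts. Both NT siRNA groups overlapped, and every library with FOXA1 siRNA was below them. In log2, the change with FOXA1 siRNA was -1.56 (standard error 0.20) in DMSO and -4.50 (standard error 0.56) in lapatinib.

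**Figure D2:**
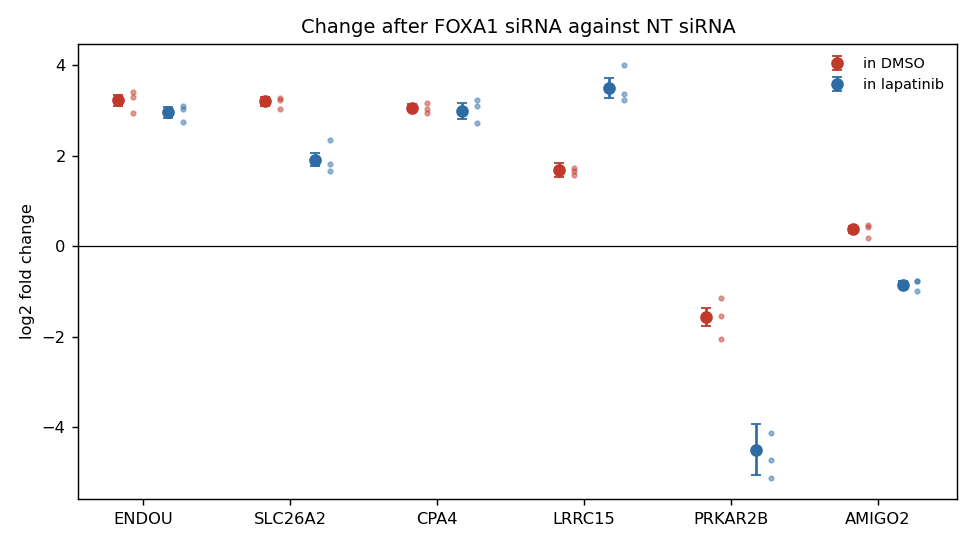
Log2 fold change after FOXA1 siRNA against NT siRNA of each of the 6 genes in DMSO (red) and in lapatinib (blue). Large points and bars are the fitted value and its standard error, and small points the ratios of same-numbered libraries; LRRC15 moves from 1.68 to 3.51, SLC26A2 from 3.20 to 1.92, PRKAR2B from -1.56 to -4.50 and AMIGO2 from 0.38 to -0.84.

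Both contrasts of FOXA1 siRNA served in choosing the genes, so these values are descriptions without a test. In DMSO, 5 of the 6 genes were above NT siRNA without overlap, as were 25.9% of all genes that passed the count filter, and in lapatinib 4 of 6, against 28.2%. Among 13694 genes tested in DMSO, ENDOU had the 26th highest log2 fold change, SLC26A2 the 28th, CPA4 the 37th and LRRC15 the 216th, while AMIGO2 was 2442nd. In lapatinib, among 13727 genes, LRRC15 was 21st, CPA4 47th, ENDOU 51st and SLC26A2 187th, and PRKAR2B had the 17th lowest value.

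Lapatinib alone lowered 3 of the 4 derepressed genes. With NT siRNA, LRRC15 fell by 2.34 on the log2 scale (standard error 0.21, edgeR adjusted p = 3.16e-05), SLC26A2 fell by 1.42 (standard error 0.15, edgeR adjusted p = 8.40e-05) and CPA4 fell by 0.52 (standard error 0.16, edgeR adjusted p = 0.0236). All 3 libraries in lapatinib were below all 3 in DMSO for each of these genes (exact permutation test, two-sided p = 0.1, the smallest that 3 against 3 can give), as for 33% of all genes. The call of CPA4 rested on single libraries: its adjusted p by edgeR was 0.0756 without NT siRNA in lapatinib replicate 1 and 0.0522 without replicate 2 of that group.

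ENDOU, AMIGO2 and PRKAR2B did not pass this test. ENDOU had a log2 fold change of 0.02 (standard error 0.15, edgeR adjusted p = 0.926) and AMIGO2 one of 0.15 (standard error 0.08, edgeR adjusted p = 0.113), although its groups did not overlap. PRKAR2B had a value of 0.07 (standard error 0.35, edgeR adjusted p = 0.879), and this value depended on 1 library: without NT siRNA in lapatinib replicate 2 it was 0.43 (edgeR adjusted p = 0.0483). Of the 6 genes 3 had an adjusted p under 0.05, and so did 59.7% of the 13713 genes tested. With an absolute log2 fold change of 1 or more required too, SLC26A2 and LRRC15 were called lower, against 7.13% of all genes called lower and 6.64% called higher. These 6 libraries are also part of the interaction that served in choosing the genes. They are the NT siRNA side of both contrasts of FOXA1 siRNA as well, which served in the choice too. The test is therefore not independent of the choice.

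In cells with FOXA1 siRNA the effect of lapatinib was unlike that with NT siRNA for 4 of the genes. SLC26A2 changed with lapatinib by -2.70 (standard error 0.11) on the log2 scale, against -1.42 with NT siRNA. LRRC15 changed by -0.51 (standard error 0.17), a much smaller decrease than with NT siRNA. PRKAR2B and AMIGO2, for which lapatinib with NT siRNA gave values near 0, changed by -2.87 (standard error 0.41) and -1.06 (standard error 0.08). CPA4 at -0.58 (standard error 0.10) and ENDOU at -0.25 (standard error 0.12) were nearer to their values with NT siRNA, -0.52 and 0.02.

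**Figure D3:**
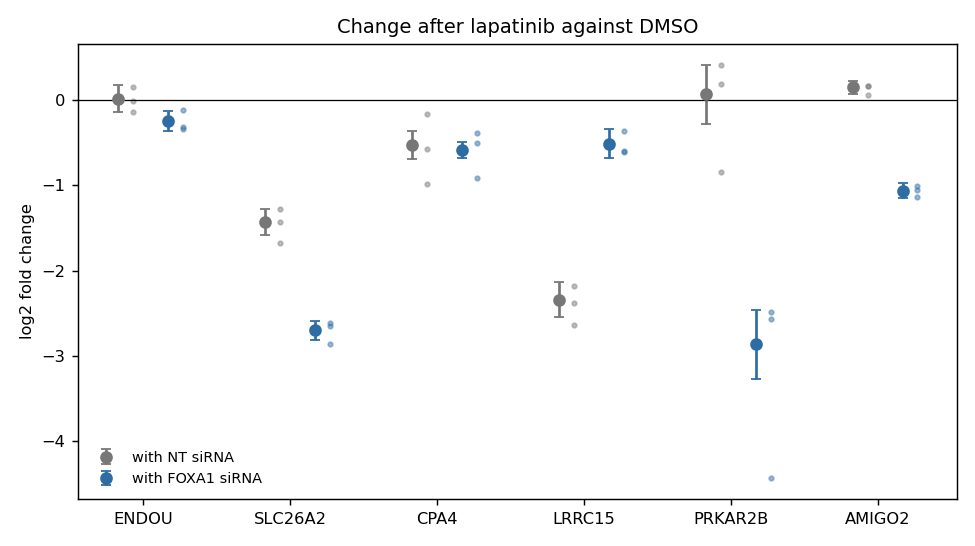
Log2 fold change after lapatinib against DMSO of each of the 6 genes with NT siRNA (grey) and with FOXA1 siRNA (blue); large points and bars are the fitted value and its standard error, and small points the ratios of same-numbered libraries. The decrease is larger with FOXA1 siRNA for SLC26A2, PRKAR2B and AMIGO2 and larger with NT siRNA for LRRC15.

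The interaction is the effect of FOXA1 siRNA under lapatinib minus its effect under DMSO, both as log2 fold changes. It was 1.84 (standard error 0.30) for LRRC15. It was negative for SLC26A2 at -1.26 (standard error 0.18), AMIGO2 at -1.20 (standard error 0.11) and PRKAR2B at -2.92 (standard error 0.65). For CPA4 at -0.05 (standard error 0.20) it was smaller than its standard error, with both signs among the same-numbered libraries. For ENDOU it was -0.25 (standard error 0.18, or 0.16 with the replicate block), and the same-numbered libraries gave -0.26, -0.21 and -0.30, all of 1 sign. Among all 14012 genes, 3.99% had a positive and 3.2% a negative interaction at an adjusted p under 0.05, that is 559 and 449 genes, or 1561 and 1292 when the fit was blocked by replicate number. Since the interaction was part of the choice, no p is given for the 6 genes.

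A measured level can be set beside what each treatment alone would give. If lapatinib changed each gene by the same fold with either siRNA, the cells with both treatments would have had 215 normalized counts of LRRC15, and 776 ± 161 (SD, n = 3) were measured. For SLC26A2 the computed level was 599 and the measured one 251 ± 25.5. For CPA4 they were 2433 and 2354 ± 310.5, and for ENDOU 744 and 625 ± 78.5. The computed level of AMIGO2 was 786 and that of PRKAR2B 74.9, against 342 ± 16.0 and 9.88 ± 6.42 measured. If instead FOXA1 siRNA added the same number of counts in both drugs, LRRC15 would have had 828, close to the value measured, whereas SLC26A2 would have had 1526 and CPA4 3415. Thus LRRC15 followed equal counts and CPA4 equal folds. All 3 libraries of ENDOU were below both computed levels, as were those of SLC26A2, AMIGO2 and PRKAR2B by larger folds.

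**Figure D4:**
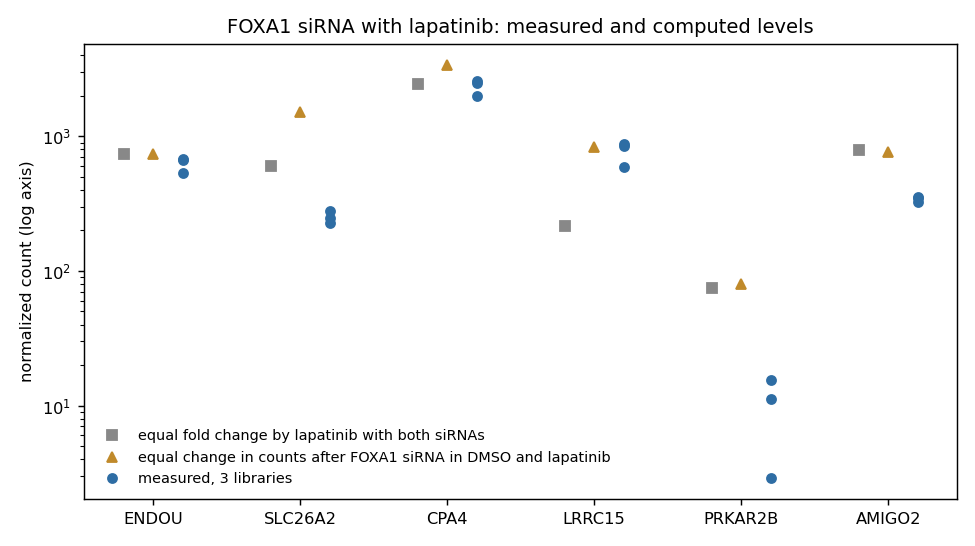
Normalized counts (log axis) of the 6 genes in the 3 libraries with FOXA1 siRNA and lapatinib (blue circles), beside the level computed for an equal fold change by lapatinib with both siRNAs (grey squares) and for an equal change in counts after FOXA1 siRNA in both drugs (brown triangles). LRRC15 lies above the square and CPA4 lies near it, while SLC26A2, PRKAR2B and AMIGO2 lie below both marks.

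Over the 12 libraries, ENDOU and CPA4 were the most alike of the 15 pairs (Pearson r = 0.98 of log2 normalized counts). SLC26A2 and LRRC15 had r of 0.79 to 0.90 with each other and with ENDOU and CPA4, and PRKAR2B and AMIGO2 had r = 0.75. These libraries form 4 groups, so the values mostly describe the group means. The gene most like ENDOU among 10812 genes with a mean of at least 100 normalized counts was MBNL1, an RNA-binding regulator of splicing (r = 0.996), followed by TTC19 and IARS2. MBNL1 had mean normalized counts of 1420.5 and 1395 with NT siRNA in DMSO and lapatinib, and 4991 and 4613 with FOXA1 siRNA. For CPA4 the genes were FKBP15, TWISTNB and COX10 (r = 0.994 to 0.995), for SLC26A2 they were MPZL2, TMEM104 and ARF3 (r = 0.988 to 0.99) and for LRRC15 CHCHD4, ZNF92 and ROBO1 (r = 0.986 to 0.987). TMEM104 had means of 769 and 411 with NT siRNA and 2168 and 809.9 with FOXA1 siRNA. PRKAR2B was most like ELFN2, GALNT10 and TWSG1 (r = 0.971 to 0.977), and ELFN2 went from 1627 and 1424 with NT siRNA to 997 and 377 with FOXA1 siRNA. AMIGO2 had the least close partners, CDK5RAP1, PARD6G and TNFSF13 (r = 0.921 to 0.947).

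Genes beside the 6 mostly did not share their changes. Within 250 kb of any of them, 27 other genes were tested after FOXA1 siRNA in DMSO, of which 3 were called higher and 1 lower, against 4.06% and 2.77% of all genes. The 3 were CAMK2A, a calcium-dependent kinase gene 232 kb from SLC26A2, by 2.97 on the log2 scale (standard error 0.37, edgeR adjusted p = 0.00055), CPA5 and LINC00887. CAMK2A had a mean of only 16.5 normalized counts over all libraries and passed the count filter only through libraries with FOXA1 siRNA. CPA5, a paralog of CPA4 that lies 20.6 kb from it, rose by 1.89 (standard error 0.48, edgeR adjusted p = 0.0140) in DMSO and by 1.90 (standard error 0.38, edgeR adjusted p = 0.00461) in lapatinib, at a mean of 11.7 normalized counts with NT siRNA in DMSO and 43.3 with FOXA1 siRNA. Its call in DMSO was lost without NT siRNA replicate 1 (edgeR adjusted p = 0.0534). Reads that fit both paralogs could be divided between them, and whether this occurred is not known. LINC00887, 42.4 kb from LRRC15, rose by 1.51 in DMSO, and COL2A1, 247 kb from ENDOU, fell by 3.25 at a mean of 2.64 normalized counts over all libraries. COL2A1, the gene called lower, passed the count filter only through NT siRNA in DMSO replicate 3, in the group where it was higher. In lapatinib 2 of 26 neighbours were called higher and 0 lower, by edgeR and by DESeq2, against 4.51% and 3.9% of all genes, and 8 were lower at an unadjusted p under 0.05. After lapatinib with FOXA1 siRNA 1 neighbour was called higher and 4 lower of 26, against 4.93% and 5.12% of all genes. All 4 called lower lay near ENDOU, which itself had -0.25. They were RAPGEF3, 8.87 kb away, at -2.75, TMEM106C at -1.12, SLC48A1 at -1.02 and VDR at -1.0003.

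Of the genes near ENDOU, SLC48A1 and VDR had an interaction of siRNA and lapatinib at an adjusted p under 0.05. SLC48A1, a heme transporter gene 28.4 kb away, rose by 0.71 in DMSO (edgeR adjusted p = 0.000515) and had a value of 0.09 in lapatinib (edgeR adjusted p = 0.374). VDR, the vitamin D receptor gene, 116 kb away, rose by 0.41 in DMSO and 0.90 in lapatinib. Its interaction did not pass in 6 of the 12 fits that left out a library (edgeR adjusted p = 0.0606 to 0.0812). ENDOU itself had values of 3.23 and 2.96. Beside PRKAR2B, HBP1, which encodes a repressor of cell cycle genes and lies 7.19 kb away, rose with lapatinib by 1.94 with NT siRNA and by 1.45 with FOXA1 siRNA, where PRKAR2B had values of 0.07 and -2.87.

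PCED1B, the single gene tested beside AMIGO2, moved in the same directions as AMIGO2. It overlaps AMIGO2 by 339 bases and lies at chr12:47079621-47236660, listed under its older symbol FAM113B in the files. Libraries in DMSO held 894, 884 and 901 normalized counts of PCED1B with NT siRNA and 1122, 1185 and 1175 with FOXA1 siRNA. Those in lapatinib held 996, 1177 and 1177 and 828, 812 and 752. As for AMIGO2, the cells with both treatments were lowest and did not overlap with the rest. FOXA1 siRNA changed PCED1B by 0.39 in DMSO (edgeR adjusted p = 0.000873) and by -0.49 in lapatinib (edgeR adjusted p = 0.00153). Lapatinib changed it by 0.34 with NT siRNA and by -0.53 with FOXA1 siRNA. The sources used here do not state whether reads were counted by strand, so those of the overlap cannot be assigned to either gene with certainty, and their part in the likeness was not tested.

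**Figure D5:**
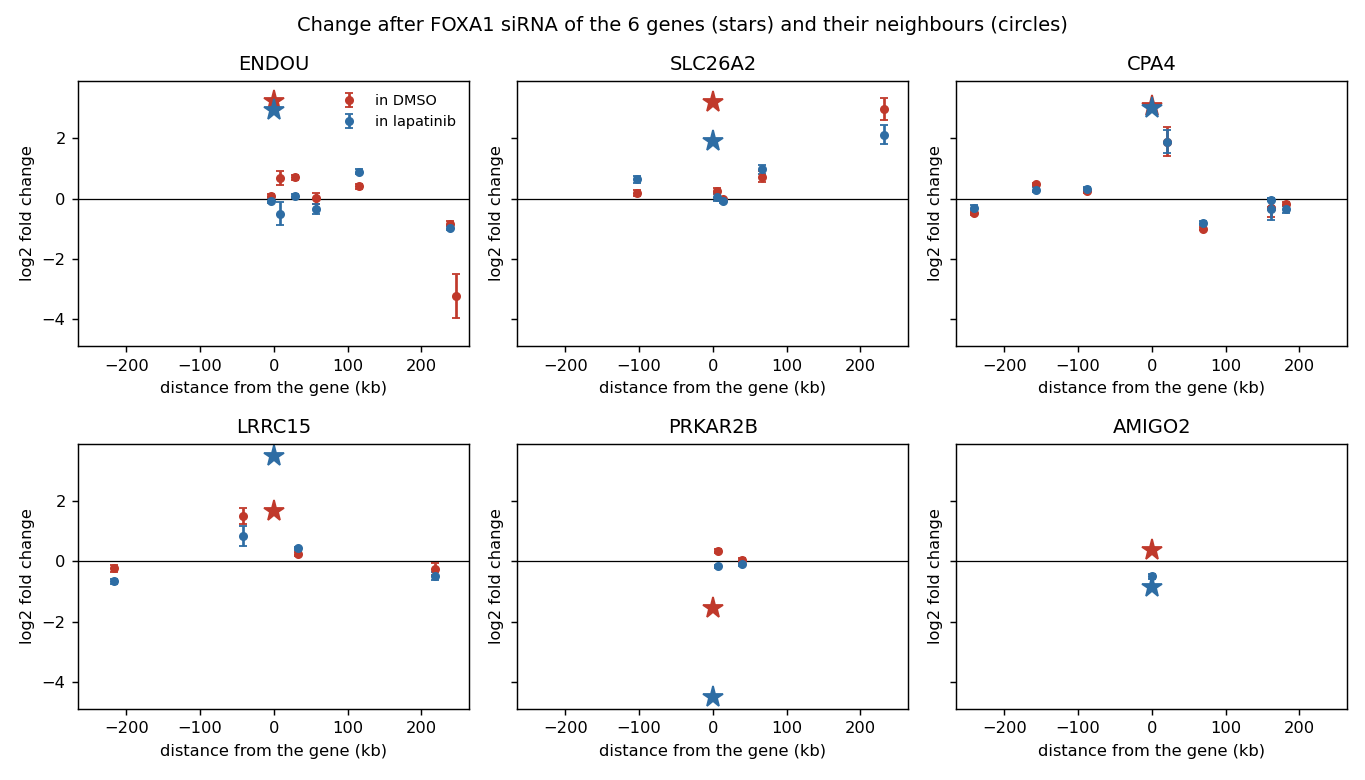
Log2 fold change after FOXA1 siRNA of the 6 genes (stars, at 0) and of the genes tested within 250 kb (circles with standard errors) against the distance from the gene in kb, in DMSO (red) and lapatinib (blue). Most circles lie nearer to 0 than the stars of ENDOU, SLC26A2, CPA4 and LRRC15. Those called in either drug are CPA5 beside CPA4, CAMK2A, LINC00887 and COL2A1. Others off 0 include CEP41 at -0.997 and -0.81, TMEM106C at -0.83 and -0.98, and CSF1R at 0.73 and 0.98, in DMSO and lapatinib. PCED1B, the single neighbour of AMIGO2, is at 0.39 and -0.49.

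Lists of genes related to the 6 were counted beside all genes, of which 4.06% were called higher and 2.77% lower in DMSO, and 4.51% and 3.9% in lapatinib. Of 37 genes of cAMP and PKA signalling, 32 were tested in DMSO, of which 1 rose and 2 fell after FOXA1 siRNA, and 30 in lapatinib, of which 2 rose and 2 fell, near the shares of all genes. ADCY5, an adenylyl cyclase, rose by 1.28 (standard error 0.21, edgeR adjusted p = 0.00175) in DMSO, and AKAP12, which anchors PKA, fell by 1.55 (standard error 0.33, edgeR adjusted p = 0.00639), in the same direction as PRKAR2B. The median log2 fold change of this list was 0.12 in DMSO against -0.01 over all genes tested. Without NT siRNA in DMSO replicate 2 the number that rose was 4, without FOXA1 siRNA in DMSO replicate 3 it was 2, and the number that fell was 1 in 5 of the 6 fits that left out a library.

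Of 50 genes of sulfate transport and sulfation other than SLC26A2, 26 were tested in DMSO, of which 1 rose and 2 fell, and 23 in lapatinib, of which 1 rose and 3 fell. In DMSO these counts lay near the shares of all genes, 4.06% and 2.77%. CHST3, a sulfotransferase that acts on chondroitin, rose by 1.54 (standard error 0.14, edgeR adjusted p = 0.000112) in DMSO and by 1.85 (standard error 0.13, edgeR adjusted p = 2.34e-05) in lapatinib. CHST15 fell by 1.28 in DMSO and fell by 1.12 in lapatinib, and CHST14 fell by 1.01 in DMSO and fell by 1.06 in lapatinib. CHST1 fell by 4.64 in lapatinib (standard error 0.75, edgeR adjusted p = 0.00151), from a mean of 19.4 to 0.689 normalized counts. It passed the count filter only through libraries with NT siRNA in lapatinib. The medians of the list were -0.15 and -0.30. Without FOXA1 siRNA in DMSO replicate 2, or replicate 3, only 1 gene was called lower in DMSO.

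Of the carboxypeptidases of CPA4's family, M14, and their inhibitors 9 were tested, and the shares of all genes were 4.06% higher and 2.77% lower in DMSO and 4.51% and 3.9% in lapatinib. Of the 9, CPA5 and RARRES1, a proposed inhibitor of the family, rose in both drugs, RARRES1 by 2.61 (standard error 0.39, edgeR adjusted p = 0.00128) in DMSO, from a mean of 4.91 to 30.2 normalized counts. RARRES1 passed the count filter in DMSO only through libraries with FOXA1 siRNA. When at least 10 counts were required in every library, 0 genes of this list were called higher in DMSO. In DMSO 0 of the 9 were called lower by edgeR or DESeq2, and 1 was lower at an unadjusted p under 0.05. Without NT siRNA in DMSO replicate 1 only 1 was called higher. In lapatinib 2 fell, of which CPM, a membrane carboxypeptidase, had means of 1931 normalized counts with NT siRNA and 848 with FOXA1 siRNA (log2 fold change -1.20, standard error 0.14, edgeR adjusted p = 0.000309). In DMSO the value of CPM was 0.14 (edgeR adjusted p = 0.181).

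Among other surface proteins with leucine-rich repeats, 0 of 20 tested were called in DMSO by edgeR or DESeq2, with 4 higher and 5 lower at an unadjusted p under 0.05. LINGO4 alone rose in lapatinib, by 3.13 (standard error 0.39, edgeR adjusted p = 0.000417) from a mean of 4.49 to 41.3 normalized counts. This gene passed the count filter only through libraries with FOXA1 siRNA. When the fit was blocked by replicate number, 2 were called higher in DMSO and 1 lower in lapatinib. When a library was left out, at most 1 was called higher in DMSO, and at most 2 in each direction in lapatinib. Of 6 extracellular or vesicular ribonucleases tested beside ENDOU, RNASE1 rose by 1.37 (standard error 0.26, edgeR adjusted p = 0.00418) and RNASE4 fell by 1.36 (standard error 0.27, edgeR adjusted p = 0.00499) in DMSO. The rise of RNASE1 in lapatinib, 1.41, was not called without NT siRNA in lapatinib replicate 1 (edgeR adjusted p = 0.0501), nor without FOXA1 siRNA in lapatinib replicate 2, where it was 0.99 and under the minimum of 1.

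Genes of squamous differentiation that were called all rose with FOXA1 siRNA, as the 4 derepressed genes did. Of 18 tested in DMSO 5 rose, and of 16 in lapatinib 6 rose, against 4.06% and 4.51% of all genes. KRT14 was among them in both drugs, at means of 0.328 and 5.53 normalized counts with NT and FOXA1 siRNA in DMSO. It passed the count filter only through libraries with FOXA1 siRNA. A filter of 10 counts in any library admits such genes, so these shares are not free of it. By edgeR and by DESeq2 0 were called lower in either drug, while 2 in DMSO and 3 in lapatinib were lower at an unadjusted p under 0.05. IVL, which encodes the cornified envelope protein involucrin, had means of 685 ± 33.0 normalized counts with NT siRNA and 2936 ± 219 with FOXA1 siRNA (SD, n = 3 each) in DMSO, a log2 fold change of 2.11 (standard error 0.07, edgeR adjusted p = 3.30e-06). In lapatinib its value was 2.07 (standard error 0.10), so like CPA4 it rose by a similar fold in both drugs. The basal keratin gene KRT5 rose by 2.62 and 3.45 and the keratin gene KRT16 by 1.87 and 2.53 in DMSO and lapatinib, from means of 7.54 and 9.80 normalized counts with NT siRNA in DMSO. In lapatinib KRT5 had means of 2.75 normalized counts with NT siRNA and 32.3 with FOXA1 siRNA. There KRT5, like KRT14, passed the count filter only through libraries with FOXA1 siRNA. The median log2 fold change of the list was 0.59 in DMSO and 0.81 in lapatinib, against -0.01 over all genes tested in each. When at least 10 counts were required in every library, 2 and 3 of these genes were called higher in DMSO and lapatinib. Of all genes, 395 instead of 556 were then called higher in DMSO. How many genes of the list were tested with that filter was not counted.

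Luminal genes mostly fell among those called. Of 20 tested, 4 fell and 0 rose in DMSO by edgeR and by DESeq2 (2 were higher at an unadjusted p under 0.05), and 5 fell and 1 rose in lapatinib. Of all genes, 2.77% fell and 4.06% rose in DMSO, and 3.9% and 4.51% in lapatinib. AGR2, a protein disulfide isomerase of luminal cells, fell by 1.12 (standard error 0.11, edgeR adjusted p = 0.000161) in DMSO and fell by 1.60 in lapatinib, and XBP1 fell by 1.36 and fell by 1.53. PIP, a secreted protein of apocrine cells, rose with lapatinib by 2.49 with NT siRNA, and FOXA1 siRNA lowered it in lapatinib by a log2 fold change of -2.66 (standard error 0.20, edgeR adjusted p = 3.10e-05), from a mean of 223 to 35.3 normalized counts. SCGB2A2, mammaglobin, was the gene that rose in lapatinib, by 1.28. The number that fell in lapatinib was 3 without NT siRNA in lapatinib replicate 3, and 1 gene rose in DMSO without NT siRNA in DMSO replicate 2.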

How the data were processed

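RNAseq was analyzed in 12 libraries of SKBR-3 cells, 3 in each of 4 groups taken from the labels. The authors deposited per gene an expected count, an estimated read number that need not be whole, together with TPM, FPKM and a normalized signal scaled to the upper quartile. The submitters' processing notes name RSEM, R 3.2.2 and DESeq2 1.12.3, and the methods name STAR on hg38 and Salmon. The deposited FPKM and normalized signal were not analyzed. The deposited TPM was used to compare levels between genes and to sum the cell type markers in each group. It also served in an alternative for the share of the rise kept in lapatinib. Expected counts were rounded and tested in R 4.3.3 with edgeR 4.0.16 (quasi-likelihood F test, TMM), on genes with at least 10 counts in any library of a fit, 6 libraries for a pair of groups and all 12 for the interaction. P-values were adjusted by Benjamini-Hochberg over all genes tested. Calls required an adjusted p under 0.05 with an absolute log2 fold change of 1 or more, with no minimum for the interaction. The procedure was tested on simulated data.

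The 6 genes and the gene lists were chosen with earlier results of these data known. Named beside them are the 3 genes most correlated with each and some of the genes tested within 250 kb. From each list at most 4 genes are named, out of those called with the largest changes after FOXA1 siRNA. Same-numbered libraries deviated together from their group means (mean correlation 0.427, range 0.267 to 0.696, over 18 pairs), so the numbers pair the libraries. The mean for different numbers, -0.199, is tied to this value, because deviations from a group mean cancel. A fit with the number as a block was run as an alternative. The calls, standard errors and p-values printed come from the fit without it unless stated, so they leave the pairing out. For LRRC15 the standard error after FOXA1 siRNA in DMSO was 0.157 without the block and 0.058 with it. That of its interaction was 0.303 and 0.152. The other alternatives were RLE and upper-quartile scaling, DESeq2 1.42.0, no count filter, 10 counts in every library, all 12 libraries in 1 model and leaving out each library. For the share of the rise kept in lapatinib, the deposited TPM was another. Expected counts totalled 25749578 to 32271850 per library (median 30542429), and a gene under 3 counts was taken as not detectable, which covers counting error only. Tables and plots were made with Python 3.11.15, pandas 2.3.3 and matplotlib 3.10.9.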

Additional observations from a re-analysis of the deposited data

Results flagged for a closer look

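AMIGO2 was set apart because all 3 replicate numbers moved one way under 1 condition and the other way under another. It was higher after FOXA1 siRNA in DMSO and lower in lapatinib. After lapatinib it was lower with FOXA1 siRNA and higher with NT siRNA, the latter by only 0.15, which did not pass the test (edgeR adjusted p = 0.113). The difference, -1.20 on the log2 scale in both views, was not tested because the gene was chosen with it.

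For 7 other genes of the text the interaction of siRNA and lapatinib passed an adjusted p under 0.05 by edgeR. Of all genes, 3.99% passed with a positive and 3.2% with a negative value. How many genes of the text were tested was not counted. PCED1B, which overlaps AMIGO2, had -0.87 (adjusted p = 0.000598, edgeR). SLC48A1 near ENDOU had -0.60 (adjusted p = 0.00757, edgeR), and HBP1 beside PRKAR2B had -0.48 (adjusted p = 0.00836, edgeR). MEST, 162 kb from CPA4, had 0.30 (adjusted p = 0.0150, edgeR). VDR had 0.51 (adjusted p = 0.0291, edgeR), which rose above 0.05 in 6 of the 12 fits that left out a library. CPM had -1.32 (adjusted p = 0.00162, edgeR), since lapatinib raised it by 1.18 with NT siRNA and gave -0.15 with FOXA1 siRNA. PIP had -1.93 (adjusted p = 0.0148, edgeR). CPM and PIP were named for their changes after FOXA1 siRNA in lapatinib, which enter the interaction. Their p-values are therefore not independent of the naming.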

How the results depend on the processing

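The derepression of ENDOU, SLC26A2, CPA4 and LRRC15 and the fall of PRKAR2B kept their direction under every normalization, filter, test and omission of a library that gave a value. With at least 10 counts required in every library, PRKAR2B was removed from the comparisons that hold FOXA1 siRNA in lapatinib and from the interaction, so it has no value there. The sign of values near 0 did not. The change of ENDOU with lapatinib and NT siRNA was -0.011 without a count filter, -0.00253 in the model of all 12 libraries and -0.047 to 0.066 with a library left out. That of PRKAR2B was -0.00027 with the replicate block and -0.19 to 0.43 with a library left out. The fall of CPA4 ranged from -0.73 to -0.38 in such fits and its interaction from -0.20 to 0.16, positive without NT siRNA in lapatinib replicate 3 or FOXA1 siRNA in lapatinib replicate 2. With a library left out, LRRC15 ranged from 1.55 to 1.81 after FOXA1 siRNA in DMSO and from -0.65 to -0.33 after lapatinib with FOXA1 siRNA, and AMIGO2 from -1.12 to -1.01 in the latter. The interaction then ranged from -0.32 to -0.15 for ENDOU, -1.26 to -1.16 for AMIGO2 and -3.40 to -2.47 for PRKAR2B. The genes with a positive and a negative interaction, 559 and 449, were 1561 and 1292 with the replicate block, and 300.0 to 782 and 242 to 583 with a library left out. The block changed no other call of the 6 genes. The alternatives were not compared for AKAP7, ADCY1, CHST1, KRT14, RAPGEF3, TMEM106C, CEP41 and CSF1R. Of 1282 values of the other named genes and of the list counts under an alternative, 1229 kept their side of the threshold or stayed within 1.5 times. Of the rest, 40 counts moved further, and 0 values turned their direction. An adjusted p under 0.05 was lost by 11 values, of CPA5, HBP1, RNASE1 and VDR, and gained by 2, both of PIP. The cause of these shifts was not tested. Depth limits PRKAR2B with both treatments, where 3 libraries held 3 to 15 counts.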
